A study of Mus musculus with 32 samples.

Results

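Annexins and the S100 proteins that bind them were followed as a group of 10 genes in cerebral and spinal cord ischaemia of the mouse. The members were chosen by symbol: the annexins Anxa1, Anxa2, Anxa3, Anxa4, Anxa5 and Anxa6 and the S100 genes S100a4, S100a6, S100a10 and S100a11. All 10 were present on the array, each with 1 probe, among 19505 genes measured. Ischaemia was made by photothrombosis, in which light activates a dye in the blood and closes vessels, in the spinal cord or in the cerebrum. The groups were injured spinal cord at 1, 3 and 7 days, spinal control, injured cerebrum at 1, 3 and 7 days, and cerebral control, with 4 arrays each and 32 in all. Every group came from male wild-type C57BL/6J mice of 6 to 12 weeks and 20 to 25 g, with no transgene or drug named. The labels do not say whether controls had an operation, how much tissue around the lesion was taken, or that each sample was a separate animal, and the p-values then cover only the scatter among these samples, which may be technical.

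Annexins are proteins that bind the phospholipids of membranes when calcium rises, and they take part in membrane repair, vesicle traffic and the clearance of dying cells. S100 proteins are small calcium sensors that work as dimers and bind the free end of an annexin, joining annexins into complexes that hold membranes together. The best known pairs are Anxa2 with S100a10, which together bind plasminogen and its activator at the cell surface, and Anxa1 with S100a11. In the nervous system these genes are known from blood-derived and resident phagocytes, meningeal and perivascular fibroblasts, vessel walls and reactive astrocytes more than from neurons.

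Annexin genes are scattered over the genome, whereas the 4 S100 genes all lie on chromosome 3, in separate pairs (GRCm38.p6). Anxa1 is at chr19:20373434-20390671 on the minus strand, Anxa2 at chr9:69453683-69491792 on the plus strand, Anxa3 at chr5:96793385-96845968, and Anxa4 at chr6:86736840-86793634 on the minus strand. Anxa5 lies at chr3:36448923-36475887 on the minus strand and Anxa6 at chr11:54978953-55033471. S100a4 (chr3:90603770-90606045) and S100a6 (chr3:90612894-90614414) lie close to each other, as do S100a11 (chr3:93520496-93526288) and S100a10 (chr3:93555117-93564645). The array probes read the genes as wholes, with no exon or isoform given.

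RefSeq promoters (GRCm38.p6) were matched for 7 of the 10 members by gene ID, with none for Anxa3, Anxa6 and S100a10. Those of Anxa1, Anxa2 and S100a11 are shown because these genes head the 2 best known annexin and S100 pairs and rose in the spinal cord. Each is the 250 bases before the annotated start, written 5′ to 3′ along the gene, at chr19:20390672-20390921 (minus strand), chr9:69453433-69453682 (plus strand) and chr3:93520246-93520495 (plus strand). Capitals mark matches on either strand to 3 motifs, the AP-1 motif TGANTCA, the TATA box TATAAA and the GC box GGGCGG, which do not overlap each other here.
Anxa1: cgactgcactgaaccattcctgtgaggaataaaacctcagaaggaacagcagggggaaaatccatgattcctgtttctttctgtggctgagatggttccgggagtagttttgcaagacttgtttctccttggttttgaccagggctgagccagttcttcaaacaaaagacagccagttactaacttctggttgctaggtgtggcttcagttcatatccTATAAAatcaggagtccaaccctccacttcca
Anxa2: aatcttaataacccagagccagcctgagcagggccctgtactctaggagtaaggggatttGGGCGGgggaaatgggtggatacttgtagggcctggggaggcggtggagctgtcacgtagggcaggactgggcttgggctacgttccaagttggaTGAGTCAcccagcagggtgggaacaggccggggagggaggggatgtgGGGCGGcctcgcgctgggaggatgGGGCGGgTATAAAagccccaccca
S100a11: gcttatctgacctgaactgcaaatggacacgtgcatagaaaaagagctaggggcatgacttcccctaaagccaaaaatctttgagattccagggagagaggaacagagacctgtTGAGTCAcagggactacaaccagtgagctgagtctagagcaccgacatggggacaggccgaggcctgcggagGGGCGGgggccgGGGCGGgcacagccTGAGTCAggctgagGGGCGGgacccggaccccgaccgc
The Anxa1 promoter held a TATA box at bases 32 to 27 before the start and neither other motif. That of Anxa2 held 1 AP-1 motif at bases 95 to 89, a TATA box at bases 17 to 12 and 3 GC boxes, and that of S100a11 held 2 AP-1 motifs, at bases 136 to 130 and 38 to 32, with 3 GC boxes. The S100a4 promoter held a TATA box at bases 31 to 26, while those of Anxa4, Anxa5 and S100a6 held no match in this window. Of 19143 mouse promoter windows of the same length, 6.26% held the AP-1 motif, 11.4% the TATA box and 44.2% the GC box, and a match describes letters, not binding.

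Values are log2, centred for each probe by the authors, so a value says how an array stands against the others for that gene and not how abundant the gene is. Levels of different members cannot be set against each other. Controls and day 1 were centred together, day 3 and day 7 each apart. The shift of each day 3 and day 7 probe against the 8 controls was rebuilt from the centring itself, as a single value or as a range (an offset range). Printed day 3 and day 7 values stand at the middle of that range. Its half-width was 0 on both days for Anxa6 and S100a10, and at most 0.46 for the other members except S100a6 (0.845 at day 3 and 0.818 at day 7) and Anxa2 (1.70 and 1.80). Against control, a day 3 or day 7 change had to exceed the half-width plus an allowance of 0.0406 or 0.0444 (limma's test against a bound), and Benjamini-Hochberg adjusted p under 0.05 over all genes is called a rise or a fall.

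Tissue labels held: the mean of 3 trunk Hox genes ran from 1.56 to 3.19 in spinal arrays and from -2.30 to -1.84 in cerebral arrays, and that of 3 forebrain genes from -2.74 to -1.51 in spinal arrays and from 0.97 to 2.23 in cerebral arrays. Some libraries stood apart. Spinal day 3 replicate 1 had the lowest array weight, 0.225. Skeletal muscle genes (8 of 8 measured) averaged 4.26, 3.60, 1.5 and 0.34 in the 4 spinal controls, against at most 1.39 in any other array, and pituitary and hypothalamic genes (7 of 7) ran from 0.51 to 2.25 at cerebral day 7, 0.24 to 0.61 at day 3, 0.00 to 0.50 at day 1 and 0.79 to 1.76 in cerebral controls.

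Spinal controls 2 and 4 stood above controls 1 and 3 for most members, which bears on every comparison that uses them. All 10 members were highest in control 2, and in 8 of 10 the pair of controls 2 and 4 was the highest. Fibroblast and meninges genes (7 of 8 measured) averaged -0.41, 2.18, -0.52 and 0.91 in the 4 spinal controls, so the same 2 arrays were high for them. The SD of Anxa2 was 2.42 in spinal controls and 0.14 in cerebral controls, while the median SD over all genes was 0.184 and 0.159. Whether the fibroblast and meninges genes have a part in the members' spread was not tested, and results with controls 1 and 3 alone, or 2 and 4 alone, are given where they end a call. This choice was made after these values were seen.

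**Figure D1:**
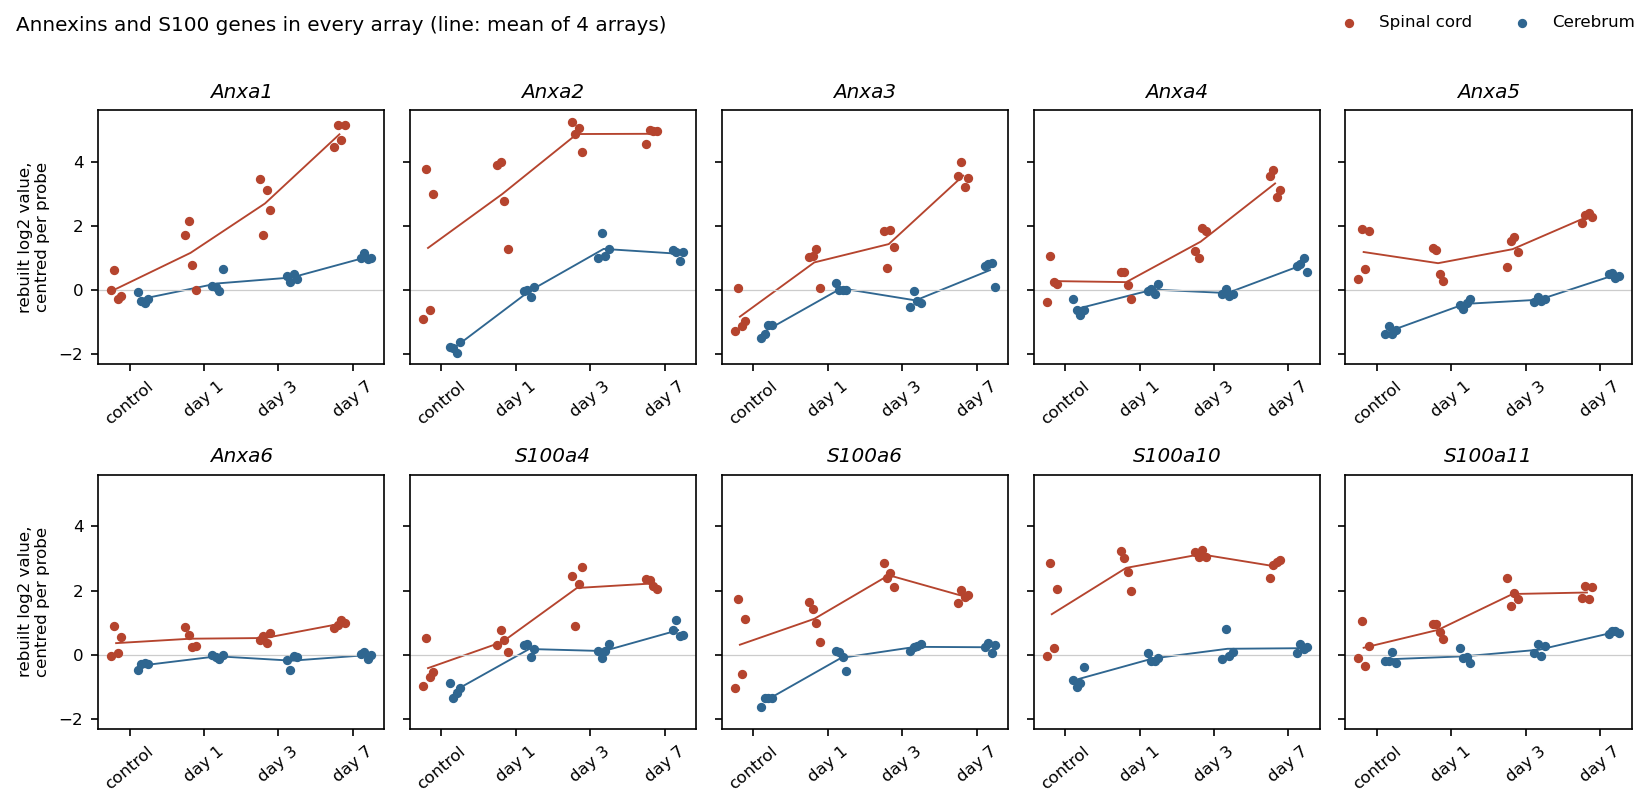
Rebuilt log2 values of the 10 members in every array, centred for each gene, at control, day 1, day 3 and day 7 (4 arrays each, spinal cord left and cerebrum right of each tick; lines join group means). At the middle of the offset range Anxa1 and Anxa3 stand 4.82 and 4.40 above the mean of the spinal controls at day 7, and the spinal controls of Anxa2 spread over 4.69 log2 units.

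In the injured spinal cord, 6 of 10 members rose at day 1, 8 at day 3 and 9 at day 7, and none fell. Over all genes 15.8% were called higher at day 1, 15% at day 3 and 19.6% at day 7 (lower, 16.1%, 18.5% and 25.2%). With all arrays in the fit, the members' share thus lay above the background at each day. At day 1 this depended on the setting. With only the 2 groups compared, 2 members and 2262 of all genes rose. With spinal controls 2 and 4 alone, Anxa3 was the only member to rise, beside 2397 of all genes. The members were chosen with earlier results of these data known. The median change of the members was 0.81, 2.02 and 2.18 on the log2 scale, beside 0.02, -0.08 and -0.10 for all genes. All injured arrays lay above all controls in 1 member at day 1 (13.3% of all genes) and, at the middle of the offset range, in 7 at day 3 (11.3%) and 7 at day 7 (19%). At the low end of that range Anxa2, S100a4 and S100a6 overlapped at day 3, and Anxa2 at day 7. The comparisons of different days share the same controls. In whole tissue, more cells that make a transcript and more transcript per cell cannot be told apart.

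Anxa2 and S100a10, the pair that binds plasminogen, were high at day 1 in most injured cords, and also in spinal controls 2 and 4. Anxa2 read -0.89, 3.80, -0.62 and 3.00 in the spinal controls, 3.93, 4.02, 2.80 and 1.29 at day 1, 5.26, 4.88, 5.06 and 4.31 at day 3, then 4.55, 5.01, 4.98 and 4.98 at day 7. Its day 1 arrays overlapped the controls, which split into a low and a high pair, and its day 3 and day 7 arrays stood above them at the middle of the offset range but not at its low end. The change was 1.69 at day 1 (SE 0.62, adjusted p = 0.0379), 3.56 at day 3 (adjusted p = 0.0139; 1.82 to 5.30 over the offset range) and 3.56 at day 7 (adjusted p = 0.0136; 1.72 to 5.41). Without spinal control 1 or 3 the adjusted p at day 3 was 0.106 or 0.092, and that of day 7 0.108 or 0.0941, and at day 1 the change against controls 2 and 4 alone was -0.39.

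S100a10 forms the core of the Anxa2 complex and is the S100 protein that does not bind calcium. It read -0.05, 2.85, 0.21 and 2.03 in spinal controls, 3.23, 3.01, 2.59 and 1.99 at day 1, 3.20, 3.04, 3.25 and 3.04 at day 3, then 2.39, 2.81, 2.88 and 2.94 at day 7. Its controls split as those of Anxa2 did, and only the day 3 arrays lay clear of all controls. S100a10 rose 2.72-fold at day 1 (log2 1.45, SE 0.36, adjusted p = 0.00285), 3.66-fold at day 3 (adjusted p = 0.000176) and 2.82-fold at day 7 (adjusted p = 0.00111). Against spinal controls 2 and 4 alone the change was 0.26 at day 1, 0.69 at day 3 and 0.31 at day 7, and none of these passed (adjusted p = 0.48, 0.0546 and 0.38).

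Anxa1, which damps inflammation through formyl peptide receptors, rose at every day in the spinal cord, and by day 7 its change was the largest of the 10 members at the middle of the offset range. The offset range of Anxa2 reaches higher, and against spinal controls 1 and 3 alone the day 7 change was 5.0 for Anxa1 and 5.64 for Anxa2. Spinal controls read 0.00, 0.62, -0.27 and -0.18, and the injured cords 1.74, 2.15, 0.78 and -0.00 at day 1, 3.47, 1.72, 3.14 and 2.50 at day 3, then 4.46, 5.17, 4.70 and 5.15 at day 7. Day 1 arrays were uneven, with 1 at the control level, whereas at day 3 and day 7 every array stood above every control. The rise was 2.18-fold at day 1 (log2 1.12, SE 0.32, adjusted p = 0.00679), 6.35-fold at day 3 (adjusted p = 4.37e-07) and 28.3-fold at day 7 (log2 4.82, adjusted p = 7.7e-14). Anxa1 averaged 4.87 ± 0.35 at day 7 and 0.04 ± 0.40 in controls (SD, n = 4 each).

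S100a11, the dimer partner of Anxa1, moved by less. It read -0.10, 1.06, -0.37 and 0.26 in controls, 0.95, 0.94, 0.72 and 0.47 at day 1, 2.39, 1.52, 1.93 and 1.72 at day 3, then 1.78, 2.14, 1.72 and 2.11 at day 7. Day 1 lay within the controls' range, and day 3 and day 7 lay above it. The rises were 1.47-fold (adjusted p = 0.0287), 3.20-fold (adjusted p = 9.54e-08) and 3.31-fold (adjusted p = 1.14e-06) at days 1, 3 and 7.

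Anxa3, an annexin known from neutrophils and microglia, rose at every day. It read -1.28, 0.06, -1.12 and -0.97 in spinal controls, 1.04, 1.06, 1.30 and 0.07 at day 1, 1.84, 0.68, 1.88 and 1.36 at day 3, then 3.56, 4.0, 3.24 and 3.51 at day 7. It was the 1 member whose day 1 arrays all lay above the controls, by a margin of 0.01, and the margin at day 7 was 3.17. Anxa3 rose 3.24-fold at day 1 (log2 1.69, SE 0.26, adjusted p = 9.51e-06), 4.81-fold at day 3 (adjusted p = 1.88e-06) and 21.2-fold at day 7 (adjusted p = 7.59e-15).

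Anxa4, a membrane-binding annexin known from epithelia, rose from day 3 on. Its spinal controls read -0.37, 1.07, 0.24 and 0.20, and the injured cords 0.57, 0.58, 0.15 and -0.28 at day 1, 1.23, 1.01, 1.96 and 1.86 at day 3, then 3.56, 3.75, 2.91 and 3.12 at day 7. Day 1 was spread through the controls, day 3 overlapped them through control 2, and day 7 stood clear. The change was -0.03 at day 1 (adjusted p = 0.931), and Anxa4 rose 2.35-fold at day 3 (adjusted p = 0.0004) and 8.27-fold at day 7 (adjusted p = 1.43e-11).

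Anxa5 and Anxa6 passed the test at day 7 alone. Anxa5, which binds the phosphatidylserine that dying cells expose, read 0.36, 1.90, 0.68 and 1.84 in spinal controls, 1.33, 1.25, 0.52 and 0.28 at day 1, 0.73, 1.53, 1.66 and 1.21 at day 3, then 2.09, 2.36, 2.42 and 2.27 at day 7. Day 1 and day 3 overlapped the controls, with day 1 replicate 4 below the lowest of them, and day 7 lay just above. Its change was -0.35 at day 1 and 0.09 at day 3, neither past the test (adjusted p = 0.285 and 0.83), and it rose 2.14-fold at day 7 (adjusted p = 0.00131).

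Anxa6, whose annexin core is duplicated, read -0.04, 0.88, 0.05 and 0.55 in controls and 0.84, 0.93, 1.07 and 1.00 at day 7, which overlapped through control 2. It rose 1.52-fold at day 7 (log2 0.60, SE 0.15, adjusted p = 0.0015), after 0.14 at day 1 and 0.16 at day 3 (adjusted p = 0.506 and 0.458). Under quantile normalisation, which gives every array the same spread over genes, the day 7 change of Anxa5 was -0.10 and that of Anxa6 0.17, neither past the test (adjusted p = 0.859 and 0.516). Against spinal controls 2 and 4 alone they were 0.42 and 0.24 and did not pass (adjusted p = 0.254 and 0.229).

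S100a4, a myosin-binding protein of motile cells and fibroblasts, read -0.97, 0.53, -0.71 and -0.54 in spinal controls, 0.30, 0.75, 0.45 and 0.08 at day 1, 2.46, 0.91, 2.21 and 2.73 at day 3, then 2.37, 2.33, 2.14 and 2.05 at day 7. The day 3 arrays differed widely, replicate 2 being the lowest, and at the middle of the offset range all day 3 and day 7 arrays were above all controls. At the low end of the day 3 range (half-width 0.427) replicate 2 fell below control 2. S100a4 rose 1.76-fold at day 1 (adjusted p = 0.0176), 5.66-fold at day 3 (adjusted p = 2.93e-07) and 6.24-fold at day 7 (adjusted p = 8.06e-10).

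S100a6, also called calcyclin, read -1.03, 1.75, -0.59 and 1.11 in spinal controls, 1.63, 1.44, 0.99 and 0.40 at day 1, 2.85, 2.39, 2.56 and 2.12 at day 3, then 1.61, 2.03, 1.79 and 1.87 at day 7. As for Anxa2, the controls formed a low and a high pair, and the day 1 and day 7 arrays overlapped the high pair. Its day 3 arrays stood above all controls at the middle of the offset range but not at its low end. The change was 0.81 at day 1 (adjusted p = 0.0706), 2.17 at day 3 (SE 0.34, adjusted p = 0.00233; 1.28 to 3.06 over the offset range) and 1.52 at day 7 (adjusted p = 0.0689; 0.65 to 2.38). Against spinal controls 1 and 3 alone the day 1 change was 1.93 (adjusted p = 3.67e-07) and the day 7 change 2.64 (adjusted p = 8.6e-08). Against the high pair of spinal controls alone the change was -0.31 at day 1, 1.05 at day 3 and 0.40 at day 7. None of these passed, so the day 3 call was lost and the day 1 direction turned.

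Counts of rises in the spinal cord depended on the controls and on the fit. At day 1, 2 members (Anxa3 and S100a4) and 4829 of all genes passed when only the 2 groups compared were fitted. Without day 1 replicate 2 the members that passed were 2, and without control 3 they were 3. Leaving out 1 array ended the day 1 call of Anxa1 in 1 case, S100a4 in 3, S100a11 in 4 and Anxa2 in 5 of 8 (adjusted p from 0.0536 to 0.226). With controls 2 and 4 alone, 5 members passed at day 3 and at day 7 (Anxa1, Anxa3, Anxa4, S100a4 and S100a11), and at day 1 Anxa3 rose while Anxa5 fell by 1.02 (adjusted p = 0.000923). Over all genes this setting called 4712 at day 1, 4171 at day 3 and 7075 at day 7. Under quantile normalisation 4 passed at day 7, Anxa1, Anxa3, Anxa4 and S100a4 (5594 of all genes). The size of these rises depended on the setting too. The lowest day 7 change over all settings tried was 2.73 for Anxa1, 2.72 for Anxa3, 1.44 for Anxa4 and 1.59 for S100a4. In the main fit these changes were 4.82, 4.40, 3.05 and 2.64.

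**Figure D2:**
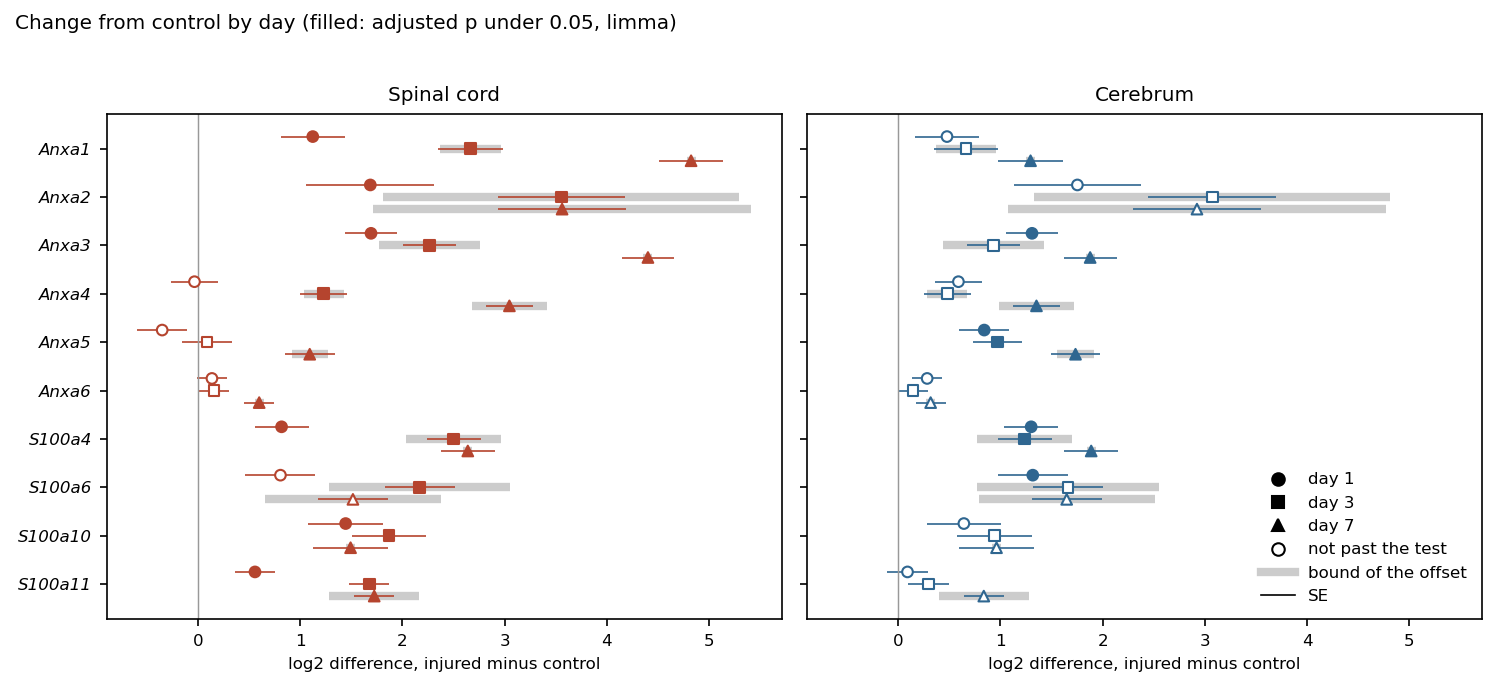
Log2 change from control (horizontal) of each member at day 1, day 3 and day 7 in spinal cord (left) and cerebrum (right); thin lines are the SE of the fit over 32 arrays and grey bars the bound left by the offset. Filled symbols passed the test, among them 9 members in spinal cord and 5 in cerebrum at day 7.

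Rises in the injured cerebrum were counted by the same test. At day 1, 4 of 10 rose (8.91% of all genes were called higher), at day 3, 2 (7.03%) and at day 7, 5 (8.87%), and none fell (8.22%, 7.45% and 7.56% of all genes did). Median changes were 0.74, 0.94 and 1.5 on the log2 scale, beside -0.01, -0.03 and -0.05 for all genes. The injured arrays all lay above all controls in 9 members at day 1 (12.5% of all genes) and, at the middle of the offset range, in 8 at day 3 (12.5%) and 10 at day 7 (14%). At the low end of that range Anxa4 overlapped at day 3. The fit shares 1 spread between tissues and the spinal controls are wide. Fitted with only the 2 groups compared, 8 members passed at day 1, 7 at day 3 and 9 at day 7, beside 2, 6 and 8 in spinal cord. Over all genes that setting called 4107, 3396 and 3799 in the cerebrum, beside 4829, 3670 and 8257 in spinal cord. Under quantile normalisation 5, 4 and 8 members passed in the cerebrum, beside 6, 6 and 4 in spinal cord. All genes called were then 5256, 4505 and 4142 in the cerebrum, beside 6020, 4230 and 5594 in spinal cord. Which tissue had more member calls depended on the setting, and the counts over all genes moved with the setting too.

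Anxa2 separated cleanly in the cerebrum and yet missed the test. It read -1.78, -1.80, -1.95 and -1.60 in cerebral controls, -0.02, 0.02, -0.20 and 0.09 at day 1, 0.99, 1.79, 1.08 and 1.30 at day 3, then 1.27, 1.19, 0.92 and 1.18 at day 7. No injured array came within 1 log2 unit of the controls at day 1. In the joint fit the change was 1.75 at day 1 (SE 0.62, adjusted p = 0.0501), 3.07 at day 3 (adjusted p = 0.103; 1.33 to 4.81 over the offset range) and 2.92 at day 7 (adjusted p = 0.166; 1.08 to 4.77). With only the 2 groups compared in the fit the adjusted p was 1.83e-08 at day 1, 2.63e-05 at day 3 and 2.54e-06 at day 7.

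S100a10 in the cerebrum read -0.80, -1.0, -0.87 and -0.38 in controls, 0.05, -0.20, -0.21 and -0.11 at day 1, -0.12, 0.81, -0.04 and 0.08 at day 3, then 0.05, 0.34, 0.17 and 0.25 at day 7. Injured arrays were all above controls on each day. Changes of 0.64, 0.94 and 0.96 did not pass (adjusted p = 0.243, 0.0819 and 0.0699), and with only the 2 groups compared they did (adjusted p = 0.00213, 0.00318 and 7.56e-05).

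Anxa1 passed the test in the cerebrum at day 7 alone. It read -0.04, -0.35, -0.41 and -0.26 in controls, 0.12, 0.10, -0.04 and 0.66 at day 1, 0.45, 0.26, 0.52 and 0.37 at day 3, then 1.00, 1.15, 0.97 and 1.00 at day 7. Every injured array was above the controls, by 0.01 at day 1. Changes at day 1 and day 3 were 0.48 and 0.66 (adjusted p = 0.329 and 0.336), and Anxa1 rose 2.45-fold at day 7 (SE 0.32, adjusted p = 0.00446), averaging 1.03 ± 0.08 against -0.26 ± 0.16 in controls (SD, n = 4 each). S100a11 read 0.65, 0.74, 0.72 and 0.67 at day 7 and -0.18, -0.21, 0.07 and -0.25 in controls, a change of 0.84 that did not pass (adjusted p = 0.109), nor did its changes of 0.09 at day 1 and 0.30 at day 3 (adjusted p = 0.807 and 0.368).

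Anxa3 rose 2.48-fold at day 1 and 3.68-fold at day 7 in the cerebrum (adjusted p = 0.000631 and 3.66e-06), with 0.93 on the log2 scale between them at day 3 (adjusted p = 0.188). Its arrays read -1.48, -1.35, -1.09 and -1.08 in controls, 0.23, -0.00, 0.01 and 0.00 at day 1, -0.51, -0.03, -0.33 and -0.39 at day 3, then 0.76, 0.81, 0.84 and 0.10 at day 7. Day 3 lay below day 1 at the middle of an offset range of 0.456 either way. Anxa4 read 0.75, 0.82, 1.00 and 0.56 at day 7, clear of -0.26, -0.62, -0.78 and -0.62 in controls, and rose 2.55-fold (adjusted p = 0.00161), after changes of 0.59 at day 1 and 0.48 at day 3 that did not pass (adjusted p = 0.0738 and 0.313).

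Anxa5 was the 1 annexin that rose at every day in the cerebrum. It read -1.37, -1.11, -1.35 and -1.24 in controls, -0.45, -0.59, -0.39 and -0.28 at day 1, -0.35, -0.22, -0.35 and -0.26 at day 3, then 0.49, 0.54, 0.38 and 0.45 at day 7. No injured array overlapped the controls, and arrays of 1 group lay close together. The rises were 1.79-fold (log2 0.84, SE 0.24, adjusted p = 0.0156), 1.96-fold (adjusted p = 0.00631) and 3.33-fold (adjusted p = 1.41e-05). Anxa6 changed by 0.28, 0.15 and 0.32 and did not pass (adjusted p = 0.197, 0.597 and 0.163).

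S100a4 likewise rose at every day, 2.46-fold, 2.36-fold and 3.70-fold (adjusted p = 0.00084, 0.0286 and 4.64e-06). It read -0.90, -1.35, -1.21 and -1.05 in cerebral controls, 0.29, 0.34, -0.08 and 0.16 at day 1, 0.10, -0.11, 0.13 and 0.32 at day 3, then 0.76, 1.08, 0.60 and 0.61 at day 7. All injured arrays were above all controls, and the day 3 call was lost without cerebral control 2 or 3 or day 3 replicate 3 or 4 (adjusted p from 0.055 to 0.0775). S100a6 read -1.63, -1.35, -1.35 and -1.35 in controls and 0.11, 0.07, -0.07 and -0.52 at day 1, and rose 2.49-fold (adjusted p = 0.00763). Its later changes of 1.66 and 1.65 did not pass a bound widened by the offset range (adjusted p = 0.0837 and 0.0735), and passed with the offset taken as exact (adjusted p = 0.000821 and 0.000776).

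The difference between the tissues in the change from control was tested directly, and here the offset drops out. At day 1, Anxa5 alone passed, with a smaller change in the spinal cord (-0.35) than in the cerebrum (0.84), a difference of -1.19 (SE 0.34, adjusted p = 0.0223). Over all genes, 6.58% had a lower and 4.7% a higher spinal change. With spinal controls 1 and 3 alone the Anxa5 difference was -0.51 and did not pass (adjusted p = 0.242). The call was also lost without spinal control 2 or 4 or spinal day 1 replicate 3 or 4 (-0.95 to -1.08), and without spinal control 2 the spinal change of S100a10 and S100a11 was the larger (1.33 and 0.75).

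At day 3 the spinal change was the larger in 4 of 10 members (4.08% of all genes): Anxa1 by 2.0 (adjusted p = 0.00391), Anxa3 by 1.33 (adjusted p = 0.0178), S100a4 by 1.27 (adjusted p = 0.0281) and S100a11 by 1.38 (adjusted p = 0.0018). At day 7 it was larger in 4 again (13% of all genes), with Anxa1 at 3.53 (SE 0.45, adjusted p = 5.72e-07), Anxa3 at 2.52 (adjusted p = 4.29e-06), Anxa4 at 1.69 (adjusted p = 0.000169) and S100a11 at 0.89 (adjusted p = 0.0155). The spinal change of Anxa1 at day 7 was 4.82 and the cerebral change 1.29. The day 3 call of S100a4 was lost when any of 7 single arrays was left out (1.05 to 1.24), and the day 7 call of S100a11 without spinal control 3 (0.69). Anxa2 differed by -0.07, 0.48 and 0.64 at the 3 days with an SE of 0.88, and S100a10 by 0.80, 0.93 and 0.53 with an SE of 0.51, none past the test. Neither did Anxa6 (-0.15, 0.01 and 0.28) or S100a6 (-0.51, 0.51 and -0.13) pass at any day, nor Anxa5 at day 3 and day 7 (-0.88 and -0.64).

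These differences moved with the choice of spinal controls and of scaling. With spinal controls 1 and 3 alone, 3 members differed at day 1, 8 at day 3 and 9 at day 7. Over all genes 1948, 2568 and 5308 then differed, where 2200, 1808 and 5382 had differed with all controls. In this setting Anxa2 differed by 2.01, 2.56 and 2.72 (adjusted p = 0.013, 0.00154 and 0.000217). With controls 2 and 4 alone, in contrast, the day 1 difference of Anxa2 was -2.14 (adjusted p = 0.0119) and that of S100a6 -1.63 (adjusted p = 0.00105). Controls 2 and 4 alone also ended the day 3 calls of Anxa3 (0.96, adjusted p = 0.171) and S100a4 (0.85, adjusted p = 0.241) and the day 7 call of S100a11 (0.44, adjusted p = 0.238). With them the spinal change was the smaller for Anxa5 at day 3 and day 7 (-1.56 and -1.32, adjusted p = 0.00162 and 0.000775) and for S100a6 at day 7 (-1.25, adjusted p = 0.00273). Under quantile normalisation the day 7 difference was 1.10 for Anxa1 and 0.69 for Anxa3 (adjusted p = 0.0609 and 0.199), -0.13 for Anxa4 and -0.23 for S100a11.

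**Figure D3:**
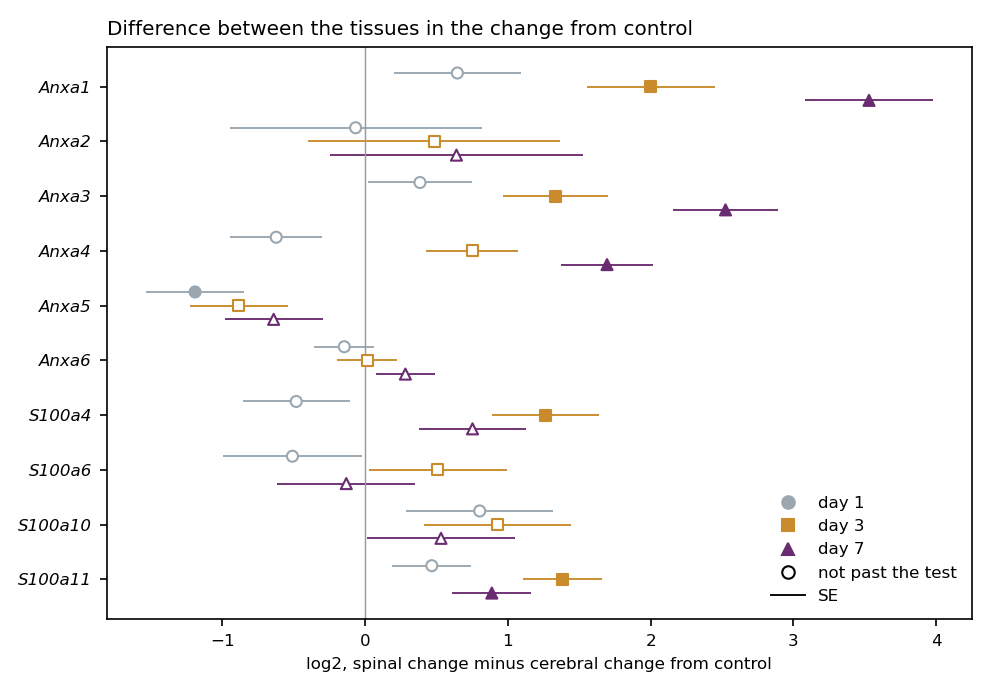
Difference between the tissues, spinal minus cerebral change from control on the log2 scale (horizontal), for each member at day 1, day 3 and day 7; lines are the SE and filled symbols passed the test. Anxa1 and Anxa3 move right with time, to 3.53 and 2.52 at day 7, while Anxa2 stays within its SE of 0.88 of 0.

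Spinal cord and cerebrum could also be set against each other at each time, without the offset. In controls 7 of 10 members were higher in spinal cord (17.2% of all genes), with Anxa2 at 3.10 (adjusted p = 0.000169), Anxa5 at 2.46 (adjusted p = 8.66e-10), S100a10 at 2.02 (adjusted p = 3.79e-05), S100a6 at 1.73, Anxa4 at 0.85, S100a4 at 0.70 and Anxa6 at 0.69. Anxa1, Anxa3 and S100a11 differed by 0.31, 0.42 and 0.36 and did not pass, and S100a4 was lost without cerebral control 2, 3 or 4 or spinal control 2 (0.39 to 0.73). With spinal controls 1 and 3 alone, 3 members passed, Anxa5, S100a6 and S100a10 (5418 of all genes), and Anxa2 differed by 1.03 (adjusted p = 0.0578).

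At day 1, 8 members were higher in spinal cord (17.3% of all genes), all but Anxa4 and S100a4. Anxa1 (0.95) lost its call there without spinal day 1 replicate 1 or 2 or cerebral day 1 replicate 3, and Anxa3 (0.81) without spinal day 1 replicate 3 (adjusted p from 0.053 to 0.121). At day 3 and at day 7 all 10 were higher (18.8% and 22.8%) and no spinal array overlapped a cerebral one in any of them (15.1% and 22.8% of all genes). Spinal minus cerebral differences at day 3 ran from 0.71 for Anxa6 to 3.59 for Anxa2, and at day 7 from 0.98 for Anxa6 to 3.84 for Anxa1. Under quantile normalisation 6 passed at day 7 (6401 of all genes), and Anxa2, S100a4, S100a6 and S100a11 did not.

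Between day 7 and day 1 of the spinal cord, 7 of 10 members rose further (18.5% of all genes were higher): Anxa1 by 3.70 on the log2 scale, Anxa4 by 3.08, Anxa3 by 2.71, S100a4 by 1.82, Anxa5 by 1.44, S100a11 by 1.17 and Anxa6 by 0.46, the last of which was lost without day 1 replicate 3 or 4 (adjusted p = 0.0625 and 0.0594). S100a10 changed by 0.05 (adjusted p = 0.934), and Anxa2 by 1.88 and S100a6 by 0.71 within a wide offset range (adjusted p = 0.589 and 0.757). Under quantile normalisation S100a10 changed by -1.10 (adjusted p = 0.0207), and Anxa5, Anxa6 and S100a11 did not pass. In the cerebrum only Anxa5 rose between day 1 and day 7 (0.89, adjusted p = 0.0345, 5.67% of all genes higher), a call lost when any array but cerebral day 1 replicate 4 was left out (adjusted p from 0.0546 to 0.0868). The other 9 changed by 0.03 (Anxa6) to 1.17 (Anxa2) and did not pass. Fitted with only the 2 groups compared, 6 members and 3269 of all genes passed there.

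Ordered by group mean, most members ran from cerebral control upwards to spinal day 7. Anxa1 averaged 0.04, 1.17, 2.71 and 4.87 in spinal cord at control, day 1, 3 and 7, and -0.26, 0.21, 0.40 and 1.03 in cerebrum, so its spinal control lay between cerebral control and cerebral day 1 and within 1 SD of each. Anxa5 was arranged otherwise: its spinal control average of 1.19 stood above the cerebral day 7 average of 0.47 (SD 0.79 and 0.07). At the middle of the offset range S100a6 and S100a10 had their highest averages at spinal day 3, 2.48 ± 0.31 and 3.13 ± 0.11, followed by spinal day 7 at 1.82 ± 0.17 and 2.75 ± 0.25 (SD, n = 4). The offset of S100a10 was single. For S100a6 the half-widths of 0.845 at day 3 and 0.818 at day 7 leave the order of these days undecided. Neighbouring groups within 1 SD of each other at the middle of the offset range included spinal day 3 and day 7 for Anxa2 (4.88 on both days), S100a4 and S100a11. The half-width was 1.70 and 1.80 for Anxa2, 0.427 at day 3 for S100a4 and 0.396 at day 7 for S100a11. These days may therefore lie further apart than their averages show.

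Related genes that are not members were counted by the same test. Over all genes, 15.8%, 15% and 19.6% rose and 16.1%, 18.5% and 25.2% fell at spinal day 1, 3 and 7. In the cerebrum 8.91%, 7.03% and 8.87% rose and 8.22%, 7.45% and 7.56% fell. Of the 6 other annexins, 2 rose at each day in spinal cord, Anxa8 by 1.40, 0.91 and 1.01 and Anxa11 by 0.48, 0.55 and 0.73, and 1 fell at day 1 (Anxa9, -0.31) and 1 at day 7 (Anxa7, -0.29). In the cerebrum none rose, and Anxa7 fell by 0.41 at day 3. Of the 11 other S100 genes, 6 rose and 2 fell in spinal cord at day 1, 3 rose at day 3 and 7 at day 7, and in the cerebrum 2, 2 and 3 rose. S100a8 and S100a9, which neutrophils carry, rose by 4.26 and 3.26 at spinal day 7 (adjusted p = 7.05e-09 and 3.27e-08) and changed by 0.54 and 0.01 in the cerebrum (adjusted p = 0.484 and 0.99). S100a16 rose in both tissues at every day, in spinal cord by 1.13, 0.82 and 0.45 and in cerebrum by 1.35, 1.39 and 1.03. S100b, the S100 gene of astrocytes, fell by 0.96 at spinal day 1 (adjusted p = 2.61e-05) against a change of 0.27 in the cerebrum (adjusted p = 0.257).

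Among binding partners and receptors of the members, 12 of 15 were measured, and in spinal cord 5 rose at day 1, 4 at day 3 and 5 at day 7, while 3, 2 and 3 fell. Over all genes 15.8%, 15% and 19.6% rose and 16.1%, 18.5% and 25.2% fell in spinal cord, so the falls at day 3 and day 7 were near the background. The cerebrum had 2, 0 and 1 rises (8.91%, 7.03% and 8.87% of all genes) and no fall. Myof, myoferlin of the ferlin family that repairs membranes with annexins, rose by 1.53, 2.52 and 4.07 in spinal cord (adjusted p = 0.000215, 1.19e-06 and 8.72e-13) and by 1.27 at cerebral day 7 (adjusted p = 0.00316). Plat, the plasminogen activator that Anxa2 and S100a10 bind, rose by 0.92 at spinal day 1 and 1.39 at day 7 (adjusted p = 0.000128 and 5.56e-08) and changed by 0.06 to 0.22 in the cerebrum with none past the test. Htr4, a serotonin receptor carried to the surface by S100a10, fell by 0.40, 0.77 and 1.13 in spinal cord.

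Over the 8 group means, the genes most like Anxa2 by Pearson correlation were Il6st (0.997), Runx1 (0.991), Rps6 (0.990), Erap1 (0.989) and Gpr35 (0.988), out of 19504 genes. S100a6 was in place 10 (0.984) and S100a10 in place 156 (0.944), whereas Anxa1 was in place 948 and Anxa4 in place 1377. The 8 means share the controls' centring and the middle of the offset range, and these values are a description.

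Markers of other cell types were read in the same arrays, and several lists moved with the members. Fibroblast and meninges genes (7 of 8 measured) ran from -0.52 to 2.18 in spinal control, 0.09 to 1.83 at day 1, 1.67 to 2.70 at day 3 and 3.48 to 4.50 at day 7, and from 0.70 to 1.13 at cerebral day 7 and -0.63 to -0.33 in cerebral control. All 7 rose at spinal day 7, Col3a1 by 4.92 and Col1a1 by 4.27, and 5 at cerebral day 7. Monocyte and macrophage genes (9 of 10 measured) ran from 2.65 to 3.15 at spinal day 7 and -0.39 to 0.50 in spinal control, and from 0.81 to 1.12 at cerebral day 7 and -0.53 to -0.32 in cerebral control, with 7 and 4 of 9 past the test at day 7. Neutrophil genes (7 of 8) ran from 2.61 to 4.22 at spinal day 7 and 0.09 to 0.98 in spinal control, but from -0.20 to 0.01 at cerebral day 7 and -0.43 to -0.21 in cerebral control.

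Homeostatic microglia genes (7 of 8 measured) ran from 0.73 to 0.91 at spinal day 7 and -0.37 to 0.10 in spinal control, but at spinal day 1 from -1.0 to -0.55, below all controls, with 3 of 7 genes lower and 1 higher past the test. At cerebral day 1 they ran the other way, from 0.47 to 0.69 against -0.23 to -0.13 in cerebral control, with 3 of 7 genes higher and 0 lower. Reactive astrocyte genes (7 of 7) had already reached 1.73 to 2.86 at spinal day 1, against -0.75 to 0.35 in spinal control. In the cerebrum they likewise ran from -0.08 to 0.42 at day 1, against -2.20 to -1.99 in control. Neuron genes (6 of 6) ran from -1.77 to -1.01 at spinal day 7 and -0.06 to 0.06 in spinal control. Their range was -0.27 to -0.18 at cerebral day 7 and -0.04 to 0.07 in cerebral control. Centred values have no zero, so no marker can be called absent. The part of these cell types in the members' changes was not tested.

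**Figure D4:**
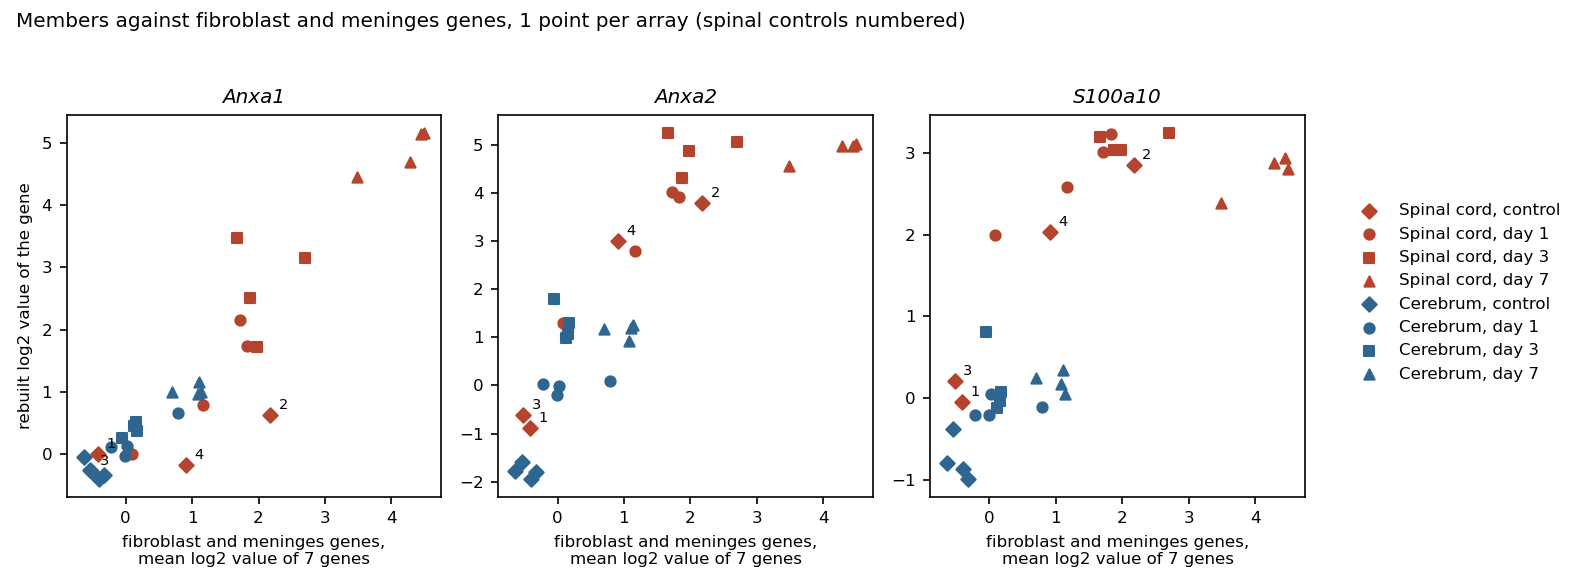
Rebuilt log2 value of Anxa1, Anxa2 and S100a10 (vertical) against the mean log2 value of 7 fibroblast and meninges genes (horizontal), 1 point per array, with the 4 spinal controls numbered. Spinal controls 2 and 4 lie to the right at 2.18 and 0.91 and are high for Anxa2 and S100a10, while in Anxa1 they stay between -0.18 and 0.62.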

How the data were processed

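RNA from spinal cord and cerebrum was measured on 32 biotin-labelled arrays of 8 groups of 4. Per the labels' protocols, TRIzol extracts of snap frozen tissue were used, at 10 ng of total RNA per labelling. The authors deposited log2 values centred per probe, with the log base (taken as 2 from the range of -5.58 to 8.04) and the summarisation software not given in the sources used here. Precision is limited by the array number.

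Controls and day 1 (16 arrays) had a median of 0 in 100% of probes. Day 3 and day 7 were each centred apart, and the 8 controls fitted as partners in 86.9% (day 3, 5646 probes with a usable pair) and 86.4% (day 7, 5146 probes), other groups in 68.7% to 70.2%. The offset per probe was solved from this match and was single in 77.9% and 80.0% of probes. The allowance is the 95th percentile, over probes without a match, of the shortfall in the half-width of the gap between the controls.

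Of 22206 probes, 19572 had 1 symbol, 0 had several and 2634 were unnamed here, and probes of 1 gene (55 genes with several) were averaged. All arrays entered 1 limma fit of 8 group means (24 residual degrees of freedom), and 15 comparisons were made with Benjamini-Hochberg adjustment over 19505 genes. The members are reported in every comparison, singly or by their count and range, and other genes only from the related lists, the marker lists and the 5 genes most like Anxa2. Members, lists, motifs and comparisons were chosen with earlier results of these data known. Replicates are numbered in accession order, which pairs no samples. Numbers in the sample titles differ by group, and if they stand for batches, these cannot be told apart from the groups. The fit was also run on simulated data, in which each gene had the same spread in all groups. That run cannot show how the fit handles the unequal spread of the members. Alternatives were 2 array scalings, 3 treatments of the offset, probes by themselves, only the groups compared, array weights, robust eBayes, each array left out and pairs of controls, and, added after the data were seen, spinal controls 1 and 3 or 2 and 4 alone and an allowance of 0.2. Computation used limma 3.58.1 in R 4.3.3 and, in Python 3.11.15, matplotlib 3.10.9, pandas 2.3.3 and numpy 2.4.6.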

Additional observations from a re-analysis of the deposited data

Results flagged for a closer look

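In 4 of 80 groups of 4 arrays 1 array lay far from the other 3 by Dixon's criterion, and chance flags about 1 in 20 such groups. Anxa2 read 4.55 in spinal day 7 replicate 1, below the other 3. Anxa3 read 0.23 in cerebral day 1 replicate 1, above the others, and 0.10 in cerebral day 7 replicate 4, below them. S100a6 read -1.63 in cerebral control replicate 1, below the others.

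The change from control differed between the tissues by a direct test in 9 cases. Anxa5 at day 1 differed by -1.19, with -0.35 in spinal cord and 0.84 in cerebrum. At day 3, Anxa1 differed by 2.0 (2.67 in spinal cord and 0.66 in cerebrum), Anxa3 by 1.33 (2.27 and 0.93), S100a4 by 1.27 (2.50 and 1.24) and S100a11 by 1.38 (1.68 and 0.30). At day 7, Anxa1 differed by 3.53 (4.82 in spinal cord and 1.29 in cerebrum), Anxa3 by 2.52 (4.40 and 1.88), Anxa4 by 1.69 (3.05 and 1.35) and S100a11 by 0.89 (1.73 and 0.84).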

How the results depend on the processing

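No paired analysis was possible because the labels give no replicate numbers shared between groups. Of 3000 member values recomputed under alternatives, 2759 counted as unchanged, 102 gained a call, 132 lost one and 7 reversed. Values without a call in either setting counted as unchanged even where their sign turned, as for S100a6 at spinal day 1. The number of members called moved by over 1.5 times in the following cases, and unless a setting's own construction shows it the cause was not tested. Quantile normalisation, which equalises the spread of all arrays, gave 4 at spinal day 7, 4 and 8 at cerebral day 3 and 7, 1 for the tissue difference in change at day 3 and 1 at day 7, 6 for spinal cord minus cerebrum at day 7, and 5 for cerebral day 7 against day 1. Over all genes it called 5594, 4505, 4142, 1711, 3239, 6401 and 3777, in the same order. Values as deposited gave 5 at cerebral day 3 and 0 for cerebral day 7 against day 1 (3002 and 365 of all genes). The offset taken as exact gave 5 and 8 at cerebral day 3 and 7 and 3 for cerebral day 7 against day 1, array weights 5, 8 and 4, and the allowance doubled 0 for the last. Over all genes the exact offset gave 3888, 4340 and 2962, array weights 3947, 4054 and 3678, and the doubled allowance 1410. With only the groups compared in the fit, 2 passed at spinal day 1, 8, 7 and 9 at cerebral day 1, 3 and 7, 0 for the tissue difference at day 1 and 6 for cerebral day 7 against day 1. Over all genes that fit called 4829, 4107, 3396, 3799, 2289 and 3269, in the same order.

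Cerebral controls 3 and 4 alone gave 2 and 1 at cerebral day 1 and 3, and controls 1 and 2 alone 0 at cerebral day 3 and 0 and 2 for the tissue difference at day 1 and 3. Spinal controls 1 and 2 alone gave 2 at spinal day 1 and 0 and 2 for the tissue difference at day 1 and 3. Calls over all genes fell in these settings too. Cerebral controls 3 and 4 alone gave 2115 and 2001, where 3341 and 2824 were called with all controls. Cerebral controls 1 and 2 alone gave 1541, 1056 and 873, where 2824, 2200 and 1808 were called. Spinal controls 1 and 2 alone gave 4113, 1418 and 1048, where 6224, 2200 and 1808 were called. Spinal controls 1 and 3 alone gave 3, 8 and 9 for the tissue difference at day 1, 3 and 7 and 3 for the controls' tissue difference, and spinal controls 2 and 4 alone 2, 5 and 5 at spinal day 1, 3 and 7 and 3 for the tissue difference at day 1. Over all genes, in the same order, controls 1 and 3 gave 1948, 2568, 5308 and 5418, and controls 2 and 4 gave 4712, 4171, 7075 and 1869. An allowance of 0.2 gave 1 at cerebral day 3 and 0 for cerebral day 7 against day 1 (937 and 441 of all genes). Leaving out each array in turn gave 2 to 7 members at spinal day 1, 1 to 2 at cerebral day 3, 0 to 2 for the tissue difference at day 1, 3 to 6 for that at day 3 and 0 to 1 for cerebral day 7 against day 1.

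Direction reversed under quantile normalisation for Anxa5 at spinal day 7 (-0.10), S100a10 between spinal day 7 and day 1 (-1.10), and the day 7 tissue difference of Anxa4 (-0.13) and S100a11 (-0.23). With spinal controls 1 and 3 alone the tissue difference of Anxa2 at day 1 was 2.01 and that of S100a6 at day 7 was 0.99, and with 2 and 4 alone Anxa2 at spinal day 1 was -0.39. Over all genes, called counts were 6224 (4113 to 6954 over alternatives), 6535 (3286 to 7470) and 8739 (5594 to 9913) at spinal day 1, 3 and 7, 3341 (1719 to 5256), 2824 (937 to 4505) and 3204 (1108 to 4340) at cerebral day 1, 3 and 7, 2200 (1056 to 3073), 1808 (838 to 2568) and 5382 (3239 to 5937) for the tissue difference, 8699 (4020 to 9850) for spinal day 7 against day 1 and 2160 (365 to 3777) for cerebral day 7 against day 1. Setting each array's median to 0 moved the share of higher calls to 57.4% at spinal day 3, where it was 44.7%, and to 57.6% for spinal day 7 against day 1, where it was 41.5%, and quantile normalisation to 56.8% for the last. The median of all genes for spinal day 7 against day 1 was then -0.02, where it was -0.13, and no member's call changed with the medians at 0. Centred values carry no signal over background, so depth cannot be judged.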
